A study of Mus musculus with 20 samples.

Results

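The genes described here are 8 control points of hepatic glucose metabolism: Pck1, Pck2, G6pc, Fbp1 and Pcx, which encode enzymes of gluconeogenesis, Ppargc1a, which encodes a transcriptional coactivator, and Pklr and Ldha, which act at the end of glycolysis. They were chosen by name for their place in the pathway, at a time when earlier results of these data were known. All 8 were found among the 46078 genes of the table of counts, and all 8 had enough counts for a test, as did 14759 genes in all.

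The livers came from male mice at least 9 weeks old, of 2 genotypes on a mixed 129 and C57BL/6 background. Cse-/- (KO) mice lack cystathionine γ-lyase in the whole body and so cannot make cysteine from cystathionine. The comparison genotype is named WT in the sample labels, but heterozygous in the study's list of mice, and is written here as Cse+/- (Het). In the study's design the mice first received a calorie-restricted control diet for 3 days, and livers were taken after 2 days on the test diet. Calorie restriction continued on the test diets. Of the Het mice, 2 were given the control diet, 4 a diet without cysteine (no-Cys) and 3 a diet without tryptophan (no-Trp). Of the KO mice, 4 were given no-Cys, 3 no-Trp and 4 no-Trp with BSO mixed into the diet. BSO (buthionine sulfoximine) blocks the enzyme that joins glutamate to cysteine, and with it the synthesis of glutathione. No KO mouse on control diet was analysed here, so the genotypes could be compared only on the deficient diets. Each library is 1 mouse and is named av01 to av22, as in the table of counts.

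Gluconeogenesis makes glucose from lactate, alanine and other precursors, and in the liver it sustains blood glucose during fasting. Pyruvate carboxylase (Pcx) makes oxaloacetate in mitochondria, and phosphoenolpyruvate carboxykinase (PEPCK) turns oxaloacetate into phosphoenolpyruvate, through a cytosolic form (Pck1) and a mitochondrial form (Pck2). Fructose-1,6-bisphosphatase (Fbp1) and glucose-6-phosphatase (G6pc) bypass the irreversible steps of glycolysis nearer to glucose. Glucagon and glucocorticoids raise Pck1 and G6pc transcription with the help of PGC-1α (Ppargc1a), and insulin lowers it. Pck2 is known as a target of ATF4, the transcription factor of the integrated stress response, which binds CEBP-ATF composite elements together with C/EBP proteins. Liver pyruvate kinase (Pklr) runs in the glycolytic direction, and lactate dehydrogenase A (Ldha) interconverts pyruvate and lactate.

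The sequences upstream of the PEPCK genes are shown because their transcripts behaved differently in these livers. They are RefSeq sequences of the GRCm38.p6 build, on the plus strand, and end at the last base before the annotated first exon. The Pck1 stretch is chr2:173152823-173153047 (225 bases) and the Pck2 stretch is chr14:55540016-55540265 (250 bases). In Pck1 the capitals mark a cAMP response element core, TGACG read on the minus strand, 90 bases before the RefSeq start. That start follows chr2:173153072 and so lies past the end of the printed stretch. In Pck2 the capitals mark a match to the composite element TGATGNAA, also on the minus strand, 103 bases before the RefSeq start.
Pck1: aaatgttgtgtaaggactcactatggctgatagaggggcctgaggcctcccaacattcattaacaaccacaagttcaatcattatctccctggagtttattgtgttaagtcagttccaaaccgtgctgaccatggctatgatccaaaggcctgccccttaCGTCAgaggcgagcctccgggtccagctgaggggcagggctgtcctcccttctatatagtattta
Pck2: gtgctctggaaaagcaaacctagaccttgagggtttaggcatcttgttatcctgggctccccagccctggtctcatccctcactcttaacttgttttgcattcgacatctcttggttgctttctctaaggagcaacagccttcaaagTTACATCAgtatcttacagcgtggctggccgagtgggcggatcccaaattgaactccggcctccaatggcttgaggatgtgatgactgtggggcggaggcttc

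In all, 5 motifs were searched on both strands in the 250 bases before the 11 RefSeq starts of the 8 genes. TGATGNAA was found at Pck2 and G6pc, and in 3.45% of all 32851 promoters. The core TGACG occurred at Pck1, at Ppargc1a and at both Ldha starts, and in 17.8% of promoters. The full element TGACGTCA, which contains that core, was found only 12 bases before 1 Ldha start, against 1.55% of promoters. The E-box CACGTG was found at Pcx and, at 2 places, at Ldha (6.02% of promoters). The forkhead motif TGTTTAC was in none of the 11 windows (3.17%). These are matches of letters, and no binding was measured.

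Counts per library ranged from 11785740 to 57986121, and levels are given as CPM, the counts scaled to a common library total with TMM factors. Cth, the gene symbol of Cse, lay between 88.4 and 332 CPM in the Het livers and between 6.37 and 14.4 CPM in the KO livers, so every library matched its genotype. Within the Het no-Cys group, av01 stood apart with 332 CPM of Cth against 121 to 132 in the other 3. Hepatocyte markers (9 of the 10 listed were in the table) summed to between 118446 and 118839 CPM in Het control livers, 84078 and 118759 in Het livers on the deficient diets, and 45705 and 82465 in KO livers. Blood markers were also lower in KO livers, at 68.3 to 184 CPM against 188 to 403 in Het control livers. Alb was the largest part of the hepatocyte sum, at 25507 to 87978 CPM over all livers. In whole liver, fewer cells of a type, less RNA per cell and lower expression of the marker genes themselves cannot be told apart. The part of these shifts in the results below was not tested.

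Per kilobase of exon, Pck1 had the highest level of the 8 genes in Het control livers, at 2028 ± 37.3 CPM (SD, n = 2). It was followed by Fbp1 (848), G6pc (385), Ldha (229), Pcx (145) and Pklr (31.8), with Ppargc1a (4.53) and Pck2 (0.749) far below. Over the 20 libraries, the highest level was 28.5 times the lowest for G6pc and 15.8 times for Pck2, but 1.59 times for Fbp1 and 1.87 times for Pck1. The widest spreads were thus those of a highly and of a weakly expressed gene. Counts in a library ran from 59 to 987 for Pck2 and from 52886 to 312754 for Pck1, so counting error weighed most on Pck2.

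**Figure D1:**
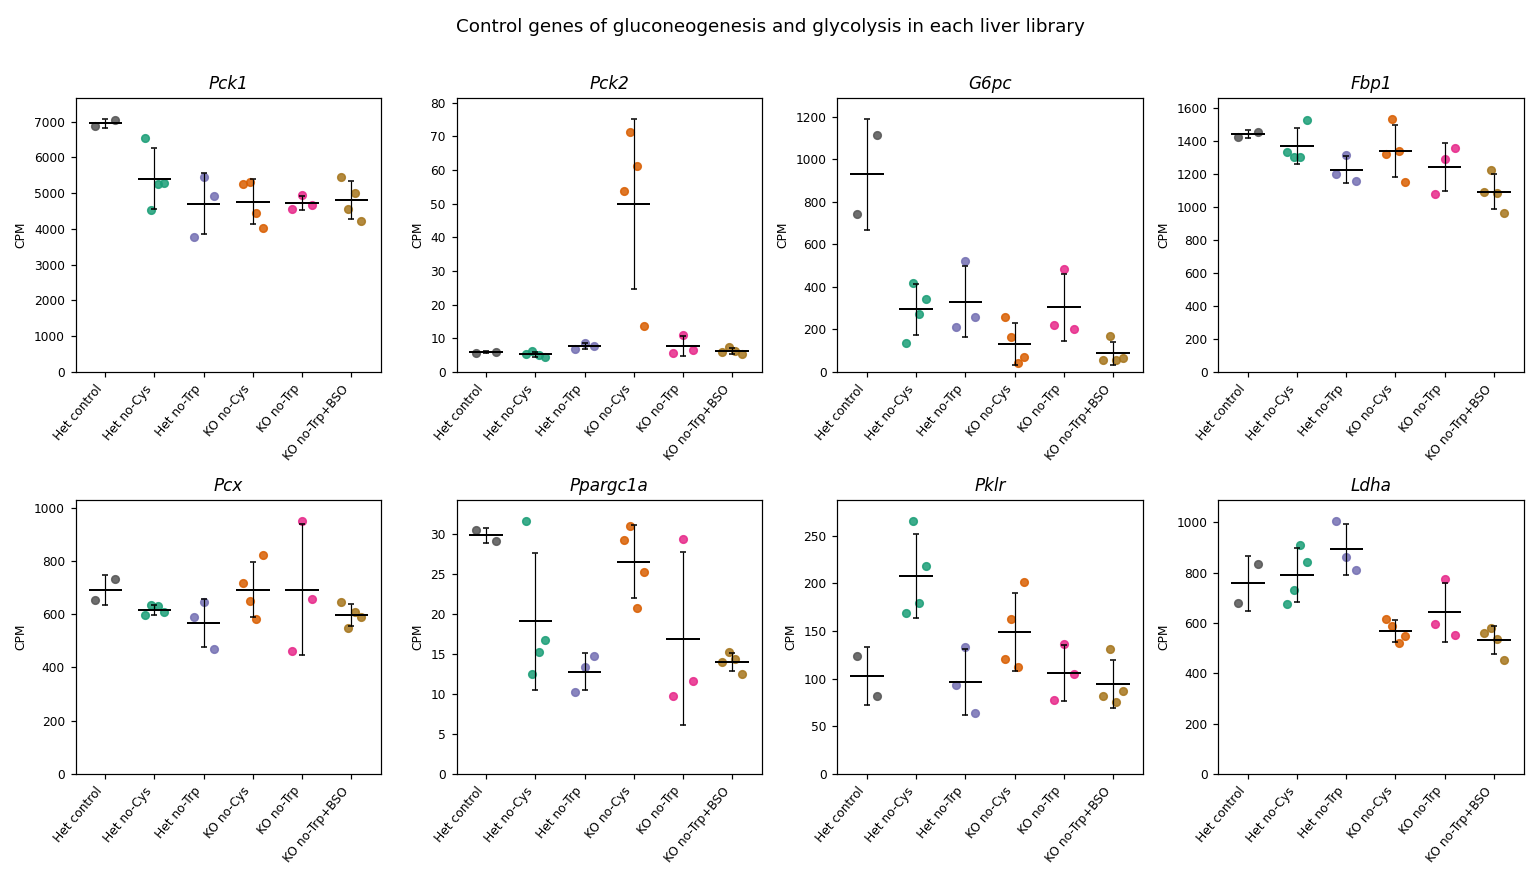
Level of each of the 8 genes, in CPM, in each of the 20 livers (points) by group, with the group mean (bar) and SD (whiskers), on axes that start at 0. Pck2 stands at 13.6 to 71.4 CPM in KO no-Cys livers and at no more than 11 CPM in any other liver, whereas Pck1 shows no such pattern.

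Pck2 was higher in each of the 4 KO no-Cys livers than in any other liver of the series. It was at 53.7, 71.4, 61.3 and 13.6 CPM in the 4 KO no-Cys livers (av05 to av08), against 5.32, 6.28, 4.90 and 4.53 CPM in the 4 Het no-Cys livers. All KO livers exceeded all Het livers, and av08 was the lowest of the 4. The log2 difference was 3.25 (SE 0.351, adjusted p = 4.3e-06, edgeR), 9.5-fold. With av08 left out it was 3.56, and with av06 left out 3.02. On the no-Trp diet the genotypes did not separate: Pck2 was at 5.44, 11 and 6.55 CPM in KO livers and at 6.89, 8.68 and 7.66 CPM in Het livers, a log2 difference of -0.04 (SE 0.382, adjusted p = 0.968). The genotype difference on the no-Cys diet was larger than that on the no-Trp diet by 3.29 on the log2 scale (SE 0.517, adjusted p = 0.0018, interaction term).

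Within the KO genotype, Pck2 was higher on the no-Cys than on the no-Trp diet by a log2 difference of 2.72 (SE 0.370, adjusted p = 0.000215). Adding BSO to the no-Trp diet gave 5.81, 7.50, 6.18 and 5.16 CPM, all below the KO no-Cys values and within the range of the Het livers. Relative to KO no-Cys livers, these livers were lower by a log2 difference of -3.04 (SE 0.336, adjusted p = 0.000148). Between KO no-Trp livers with and without BSO the difference was -0.31 (SE 0.362, adjusted p = 0.779). In Het livers, the control (5.71 and 5.99 CPM) and the no-Cys diet did not differ beyond the spread, at -0.15 (SE 0.445, adjusted p = 0.901), and the no-Cys livers lay below the no-Trp livers by -0.57 (SE 0.375, adjusted p = 0.363). The order of the group means was KO no-Cys (50 CPM), Het no-Trp (7.74), KO no-Trp (7.67), KO no-Trp with BSO (6.16), Het control (5.85) and Het no-Cys (5.26). KO no-Cys and Het no-Trp livers did not overlap, a pair that was not tested, and each of the other neighbours in that order overlapped. The comparisons with KO no-Cys share its 4 livers.

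Even so, transcripts of the mitochondrial enzyme remained a small part of all PEPCK transcripts. Per kilobase, Pck2 made up 0.446% ± 0.211 (SD, n = 4) of Pck1 plus Pck2 in KO no-Cys livers, between 0.148% and 0.603%. The share was 0.0438% ± 0.0116 (n = 4) in Het no-Cys livers and 0.0369% ± 0.000555 (n = 2) in Het control livers. It lay between 0.0467% and 0.0981% in the livers of the 3 groups on no-Trp diets. The lengths used are those of all annotated exons of each gene, and the 13 Pck2 transcripts differ in the exons they use, so that the share would move with the isoform.

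Pck1, the cytosolic form, did not follow Pck2. It was at 5259, 5321, 4436 and 4028 CPM in KO no-Cys livers and at 6552, 4521, 5264 and 5269 CPM in Het no-Cys livers. The groups overlapped, with a log2 difference of -0.18 (SE 0.132, adjusted p = 0.337). Its highest levels were those of the 2 Het control livers, 6865 and 7046 CPM, above all 18 livers on a deficient diet. Against these, Het no-Trp livers (3759, 5450 and 4903 CPM) gave -0.56 (SE 0.168, adjusted p = 0.275) and Het no-Cys livers -0.36 (SE 0.159, adjusted p = 0.25), neither of which passed the test. Among the 3 KO groups, Pck1 means were 4761, 4720 and 4802 CPM, and the differences between them were no larger than 0.03 on the log2 scale (SE up to 0.142).

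G6pc, whose product releases free glucose, had the largest ratio of highest to lowest level of the 8 genes over the 20 livers. It was at 744 and 1114 CPM in Het control livers, and in no other liver above 519 CPM. Het no-Cys livers were at 136, 419, 273 and 343 CPM and KO no-Cys livers at 257, 164, 39.2 and 68.2 CPM. The groups overlapped, and the log2 difference of -1.15 (SE 0.505) did not pass the test (adjusted p = 0.106). It passed when av05 was left out (-1.68, adjusted p = 0.0309). On the no-Trp diet, KO livers were at 222, 485 and 201 CPM and Het livers at 212, 519 and 259 CPM, almost the same values, with a log2 difference of -0.13 (SE 0.574, adjusted p = 0.938).

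With BSO, G6pc was at 56.8, 169, 55.3 and 65.4 CPM, below all 3 KO no-Trp livers. The log2 difference was -1.80 (SE 0.540, adjusted p = 0.123), which did not pass, whereas without av10, the liver at 169 CPM, it was -2.36 (adjusted p = 0.0432). Both deficient diets in Het mice gave lower values than the control diet without overlap, by -1.67 (SE 0.586, adjusted p = 0.143) on no-Cys and by -1.49 (SE 0.633, adjusted p = 0.475) on no-Trp. These comparisons share the same 2 control livers. G6pc thus had large differences with large errors, and none passed the threshold in the filtered fit with all libraries included. Without the filter on low counts, G6pc passed for KO no-Cys against Het no-Cys livers (-1.14, adjusted p = 0.0219), KO no-Cys against KO no-Trp (-1.20, adjusted p = 0.0425), KO no-Trp with against without BSO (-1.80, adjusted p = 0.00417) and Het no-Cys against Het control (-1.67, adjusted p = 0.0142). Its calls thus depended on the filter.

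Neither Fbp1 nor Pcx passed in any comparison, and Fbp1 had the narrowest range of the 8 genes. Fbp1 means lay between 1094 CPM (KO no-Trp with BSO) and 1444 CPM (Het control), and its values between 966 and 1539 CPM. The genotype difference was -0.03 (SE 0.104, adjusted p = 0.857) on no-Cys and 0.02 (SE 0.120, adjusted p = 0.953) on no-Trp. Its largest difference in relation to error was that between KO no-Trp livers with BSO and KO no-Cys livers, -0.29 (SE 0.104, adjusted p = 0.123), which passed without av08 (-0.36, adjusted p = 0.0415). Pcx means lay between 567 and 692 CPM. Its genotype difference was 0.17 (SE 0.159, adjusted p = 0.473) on no-Cys and 0.28 (SE 0.183, adjusted p = 0.433) on no-Trp. The 3 KO no-Trp livers spread from 463 to 951 CPM of Pcx, the whole range of the series. Over all 9 comparisons, the log2 differences of Fbp1 lay between -0.29 and 0.16 and those of Pcx between -0.28 and 0.28.

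Ppargc1a was at 29.3, 31, 20.7 and 25.2 CPM in KO no-Cys livers, close to the 30.5 and 29.2 CPM of Het control livers. In Het no-Cys livers it was at 31.7, 12.5, 15.3 and 16.8 CPM, where av01 alone reached the control level. The genotype difference on the no-Cys diet was 0.48 (SE 0.285, adjusted p = 0.231), and 0.84 (adjusted p = 0.0318) without av01. KO no-Trp livers were at 9.75, 29.4 and 11.6 CPM, and here av15 stood apart. The difference between KO no-Cys and KO no-Trp livers was 0.67 (SE 0.308, adjusted p = 0.174), and 1.31 (adjusted p = 0.00539) without av15. The 4 BSO livers (14, 15.2, 14.4 and 12.5 CPM) were all below the 4 KO no-Cys livers, by -0.92 (SE 0.284, adjusted p = 0.0796). That difference passed with DESeq2 (-0.93, adjusted p = 0.0229) and when only those groups were fitted (-0.93, adjusted p = 0.00753). Het no-Trp livers (10.2, 13.4 and 14.7 CPM) were below both control livers, by -1.22 (SE 0.358, adjusted p = 0.273). Without the filter on low counts, Het no-Trp against Het control passed (-1.20, adjusted p = 0.0254). So did KO no-Trp with BSO against KO no-Cys (-0.91, adjusted p = 0.00944). The calls on Ppargc1a thus turned on single livers, on the test and on the filter.

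**Figure D2:**
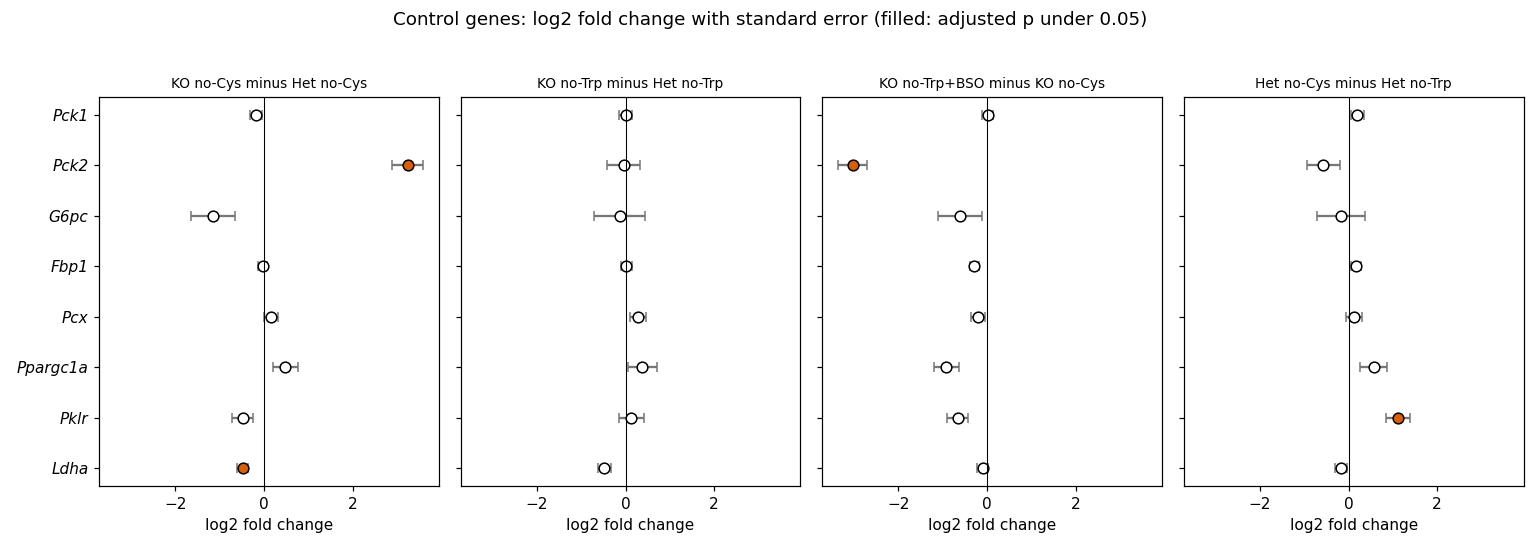
Log2 fold change of each of the 8 genes (points) with its standard error (whiskers) in 4 comparisons, where filled points passed an adjusted p of 0.05 in edgeR. The largest are those of Pck2, 3.25 for KO no-Cys against Het no-Cys and -3.04 for KO no-Trp with BSO against KO no-Cys, with Ldha (-0.48) and Pklr (1.11) the only other filled points.

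On the glycolytic side, Ldha was lower in KO than in Het livers on the no-Cys diet. It was at 616, 588, 519 and 548 CPM in KO livers and at 674, 729, 911 and 844 CPM in Het livers, without overlap. The log2 difference was -0.48 (SE 0.125, adjusted p = 0.00899). On the no-Trp diet the values were 597, 776 and 553 CPM in KO livers and 1007, 862 and 812 CPM in Het livers, again without overlap. Here the difference was also -0.48 (SE 0.144), but its adjusted p of 0.0782 missed the threshold with edgeR and passed it with DESeq2 (-0.47, adjusted p = 0.032). The interaction term was 5e-04 (SE 0.190, adjusted p = 0.999), so that a diet dependence of the genotype difference was not detected. The BSO livers were at 560, 578, 536 and 454 CPM, a log2 difference of -0.27 from KO no-Trp livers (SE 0.134, adjusted p = 0.398). The other 5 comparisons gave log2 differences of Ldha between -0.18 and 0.24 (adjusted p between 0.425 and 0.884). Of the 61-base words of Ldha transcripts, 5.46% occur in other genes, pseudogenes among them.

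Pklr differed between the deficient diets in Het mice. It was at 169, 266, 179 and 218 CPM on the no-Cys diet, above the 92.9, 133 and 63.7 CPM on the no-Trp diet and the 124 and 81.5 CPM on the control diet. The difference between the deficient diets was 1.11 (SE 0.270, adjusted p = 0.0173), a 2.15-fold higher level on no-Cys. It no longer passed without av02 (0.97, adjusted p = 0.0565), without av17 (1.08, adjusted p = 0.0534) or without av20 (0.88, adjusted p = 0.0868). Relative to the control diet the no-Cys difference was 1.02 (SE 0.312, adjusted p = 0.0927), which passed with DESeq2 (1.02, adjusted p = 0.021). KO no-Cys livers (121, 163, 112 and 201 CPM) overlapped all 3 of these groups, with a genotype difference of -0.48 (SE 0.244, adjusted p = 0.159) and an interaction term of -0.62 (SE 0.372, adjusted p = 0.381). KO no-Trp livers with BSO (75.7 to 131 CPM) gave -0.66 against KO no-Cys livers (SE 0.245, adjusted p = 0.137), which passed without the filter on low counts (-0.65, adjusted p = 0.0484). The other 4 comparisons gave log2 differences of Pklr between -0.18 and 0.49 (adjusted p between 0.252 and 0.96). Exons of Hcn3, on the opposite strand, cover 22% of the exon bases of Pklr, and the sources used here do not give the strand setting of the counting, so reads of the pair cannot be told apart there.

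Counts of the 8 genes that passed with edgeR are set here beside the share of all tested genes that did. For KO no-Cys against Het no-Cys livers 2 of 8 passed, Pck2 higher and Ldha lower, where 23.8% of all genes tested did, so that the count of 2 is near the background. The median log2 difference of the 8 was -0.11, and that of all genes -0.01. For KO no-Cys against KO no-Trp livers 1 of 8 passed (10.4% of all genes), for KO no-Trp with BSO against KO no-Cys 1 of 8 (2.75%) and for the interaction 1 of 8 (4.36%), which was Pck2 each time. For Het no-Cys against Het no-Trp livers 1 of 8 passed, Pklr (8.04%). The shares of all genes moved when single livers were left out. For KO no-Trp with BSO against KO no-Cys the share was 0.352% without av06 and 6.97% without av08.

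In the other 4 comparisons none of the 8 passed with edgeR. For KO no-Trp against Het no-Trp livers, where 2.64% of all genes passed, 1 of the 8 had an unadjusted p under 0.05 (18.4% of all genes) and DESeq2 called 1 (4.92%), Ldha in both cases. For KO no-Trp livers with against without BSO, where 0.793% of all genes passed, 1 of the 8 had an unadjusted p under 0.05 (13% of all genes), G6pc, and DESeq2 called 0 (2.8%). For Het no-Cys against Het control livers, where 2.18% of all genes passed, 3 of the 8 had an unadjusted p under 0.05 (16.6% of all genes), Pck1, G6pc and Pklr, and DESeq2 called 1 (4.68%), Pklr. For Het no-Trp against Het control livers, where 0.0474% of all genes passed, 3 of the 8 had an unadjusted p under 0.05 (9.29% of all genes), Pck1, G6pc and Ppargc1a, and DESeq2 called 0 (0.441%). The DESeq2 shares are of the genes to which it gave an adjusted p. The control group held 2 livers, fewer than any other group. Without av22, 1 of these 2, the edgeR share for Het no-Cys against Het control was 0.0655%.

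The neighbouring enzymes of the pathway moved in both directions in KO no-Cys against Het no-Cys livers. Of 22 further enzymes and isozymes of glycolysis and gluconeogenesis, 20 were tested, and 4 rose and 3 fell, against 23.8% of all genes that passed in either direction. Aldolase A (Aldoa) rose by 0.69 (SE 0.093, adjusted p = 4.26e-05) and G6pc3, a glucose-6-phosphatase expressed in most tissues, by 0.60 (adjusted p = 0.00581). Aldolase C (Aldoc), the brain form, fell by 1.53 (adjusted p = 0.000216), from between 11.3 and 15.4 CPM in Het to between 2.95 and 7.60 CPM in KO livers. The muscle phosphofructokinase (Pfkm) and the pyruvate kinase of tissues other than liver and red cells (Pkm) fell by 0.82 and 0.56 (adjusted p = 0.00186 and 0.00536). Summed markers of cholangiocytes (5 of 5 in the table) were also lower in these KO livers, at 16.4 to 28.6 against 45.9 to 57.9 CPM. Spp1 had the highest level of these 5, at 11.8 to 68.9 CPM over all livers. Stellate cell markers (6 of 6) were lower too, at 184 to 226 against 233 to 279 CPM. Those of Kupffer cells (7 of 7) overlapped, at 199 to 260 against 240 to 309 CPM. So did those of endothelium (6 of 6), at 155 to 169 against 157 to 195 CPM. The part of these cell types in the differences of these isozymes was not tested. The liver phosphofructokinase (Pfkl) gave 0.01 and did not pass, and was named after its value was seen. The list's median was -0.05.

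**Figure D3:**
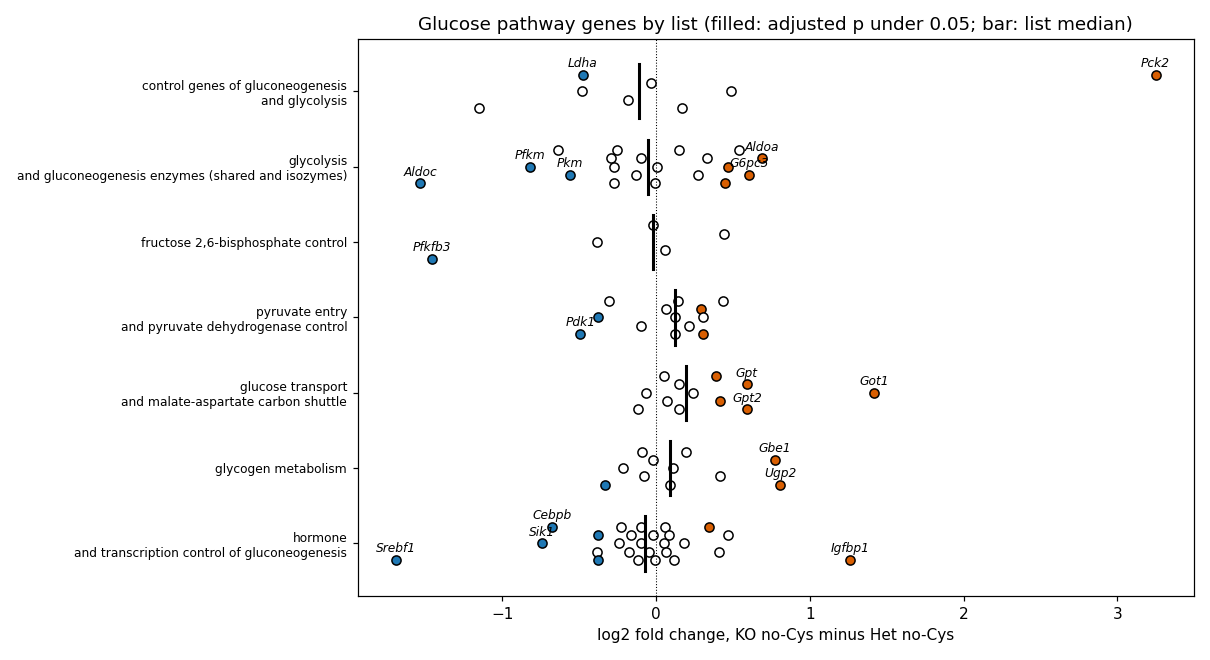
Log2 fold change of KO no-Cys against Het no-Cys livers for the tested genes of each list (points), where orange points rose and blue points fell at an adjusted p of 0.05 in edgeR, and the bar is the median of the list. Pck2 (3.25) lies beyond all other genes shown, and the list medians lie between -0.11 and 0.20.

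Of 5 genes that set fructose 2,6-bisphosphate, only Pfkfb3 passed in this comparison, in which 23.8% of all genes did. Its product makes fructose 2,6-bisphosphate, which activates phosphofructokinase and inhibits Fbp1. Pfkfb3 was at 42.6, 39.1, 29.9 and 22.9 CPM in KO no-Cys and at 65.2, 92.1, 105 and 107 CPM in Het no-Cys livers, a log2 difference of -1.46 (adjusted p = 0.000373). The Het no-Cys livers were also above the 31.8 and 30 CPM of Het control livers, by 1.58 (adjusted p = 0.0135), a call that was lost without av21 or av22, the control livers (1.62, adjusted p = 0.0822 and 1.53, adjusted p = 0.238). On the no-Trp diet Pfkfb3 was likewise lower in KO than in Het livers, by -1.21 (adjusted p = 0.0327). That call was lost under 7 of 14 alternatives. The interaction term of Pfkfb3 was -0.25 and did not pass. Among 14 genes of pyruvate entry and pyruvate dehydrogenase control, 13 were tested, and 2 rose and 2 fell (23.8% of all genes in either direction). Pdk1, a kinase that inactivates pyruvate dehydrogenase, fell by 0.49 (adjusted p = 0.00523). Pdk1 differed between genotypes in the opposite direction on the no-Trp diet, 0.64 (adjusted p = 0.0166), a call lost without av15, av16, av19 or av20 (0.55 to 0.67, adjusted p between 0.0528 and 0.0963), and its interaction term was -1.13 (adjusted p = 0.00204).

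Of 12 genes of glucose transport and the carriers and transaminases that move carbon between mitochondria and cytosol, 5 rose and 0 fell (23.8% of all genes in either direction), with a list median of 0.20. Cytosolic aspartate transaminase (Got1) was at 901, 926, 928 and 952 CPM in KO no-Cys and at 415, 281, 431 and 260 CPM in Het no-Cys livers, 1.42 higher (adjusted p = 5.08e-05). The alanine transaminases Gpt and Gpt2 rose by 0.59 each (adjusted p = 0.00216 and 0.000797). Het no-Cys livers were in turn below the Het control livers (1086 and 1472 CPM) in Got1, by -1.88 (adjusted p = 0.000338), and the interaction term of Got1 was 1.54 (adjusted p = 0.00562). Thus Got1 in KO no-Cys livers lay between the Het no-Cys and the Het control levels.

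Of 11 genes of glycogen metabolism, 2 rose and 1 fell on the no-Cys diet (23.8% of all genes in either direction), with a median of 0.09. UDP-glucose pyrophosphorylase (Ugp2) was at 718, 811, 689 and 778 CPM in KO and at 353, 494, 396 and 467 CPM in Het livers, 0.81 higher (adjusted p = 5.51e-05). Ugp2 was also higher in KO livers on the no-Trp diet, by 0.76 (adjusted p = 0.00443). Glycogen branching enzyme (Gbe1) rose by 0.77 (adjusted p = 6.82e-05), and within the KO genotype it was higher on no-Cys than on no-Trp by 0.68 (adjusted p = 0.00175). The list on the no-Trp diet had 3 genes higher and 0 lower, where 2.64% of all genes passed in either direction, and its median was 0.40, where the median of all genes was 0.00.

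**Figure D4:**
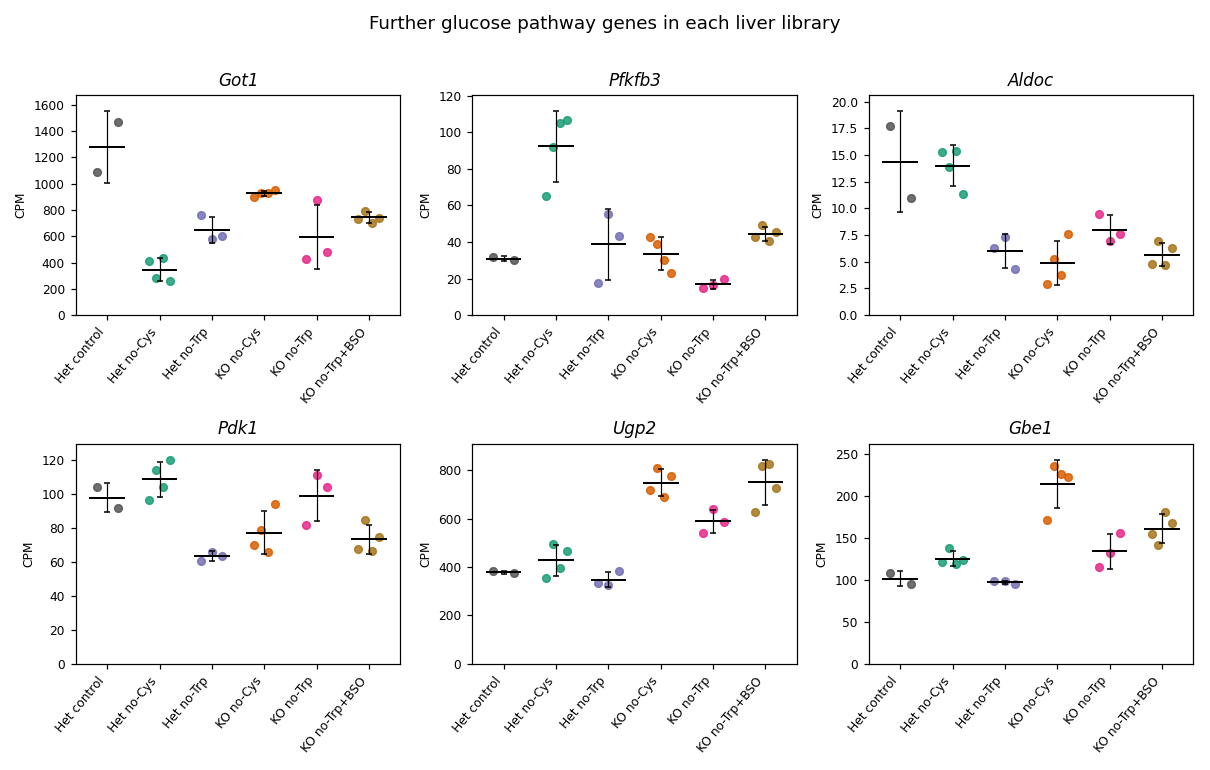
Level in CPM of 6 further genes of glucose metabolism in each liver (points) by group, with the mean (bar) and SD (whiskers), on axes that start at 0. Got1 is at 260 to 431 CPM in Het no-Cys livers and 901 to 952 CPM in KO no-Cys livers, and Pfkfb3 shows the opposite order, 65.2 to 107 CPM against 22.9 to 42.6 CPM.

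Among 26 genes of the hormonal and transcriptional control of gluconeogenesis, 2 rose and 5 fell in KO no-Cys against Het no-Cys livers (23.8% of all genes in either direction), with a median of -0.07. Igfbp1, a liver gene that insulin represses, was higher by 1.26 (adjusted p = 0.0143), but not past the threshold without av05 (0.99, adjusted p = 0.0619) or av06 (1.08, adjusted p = 0.0511). Het no-Cys livers (80.2 to 157 CPM) were in turn below the Het control livers (282 and 866 CPM) in Igfbp1, by -2.11 (adjusted p = 0.0117, and -1.09 with adjusted p = 0.519 without av22), and KO no-Cys livers were at 172 to 491 CPM. Srebf1, which encodes an insulin-induced activator of lipogenic genes, fell by 1.69 (adjusted p = 0.000225). The glucocorticoid receptor (Nr3c1) fell by 0.38 (adjusted p = 0.00868), from between 65 and 88.5 CPM in Het to between 55.4 and 62.4 CPM in KO livers. Cebpb, which encodes the transcription factor C/EBPβ, fell by 0.68 (adjusted p = 0.0271), a call lost without av03, av04, av07 or av08 (-0.64 to -0.52, adjusted p between 0.0698 and 0.101) and in a fit of only those groups (-0.68, adjusted p = 0.0533). Of other regulators of Pck1 and G6pc, Foxo1 gave -0.22, Crtc2 -0.12, Hnf4a 0.07 and Gcgr, the glucagon receptor, -0.05, and these did not pass. Apart from Cebpb, these and Atf4 were named for their role after the values were seen. Atf4 itself was at 129 ± 31.1 CPM (SD, n = 4) in KO no-Cys and 97.2 ± 10.8 CPM (n = 4) in Het no-Cys livers. The difference of 0.41 on the log2 scale did not pass (adjusted p = 0.137). ATF4 protein, which the study describes as raised through translation, was not measured here, and the transcript level does not give its amount. Sik1, a kinase that cAMP induces, was lower in KO no-Cys than in KO no-Trp livers by -1.46 (adjusted p = 0.000875).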

How the data were processed

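Messenger RNA of 20 livers was purified with poly(A) beads, prepared with a NEBNext Ultra kit and sequenced as paired ends. The values used are whole-number counts per gene, as the authors deposited them, without normalization; per the submitters' processing notes reads were aligned to GRCm38 with HISAT2 2.1.0 and counted with HTSeq 0.11.0. The annotation release and strand setting are not given in the sources used here. Of the columns, 1 was not used because the list of mice gives it no condition. Columns were assigned to groups from that list. Of 46078 Ensembl genes, 45143 had a symbol in GENCODE M21, the source of coordinates.

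Depth was 11785740 to 57986121 counts per library. Genes passing filterByExpr (minimum count 10, minimum total 15; 14759) were scaled by TMM and fitted with the quasi-likelihood model of edgeR 4.0.16 (R 4.3.3) with 6 group means, and two-sided p-values received Benjamini-Hochberg adjustment over every tested gene (threshold 0.05). CPM are counts divided by the TMM-scaled library total. The SE was taken as |log2 fold change| over the root of F. Replicates are separate mice.

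The 8 genes and the lists were chosen with earlier results of these data known. The rule names all 8 in every comparison, and some of those that did not pass are given by their range or in the count only. Of the genes listed, 2 are not reported here. Of the other lists, up to 3 called genes in each direction with a mean of at least 1 CPM may be named, and among these mostly genes are named whose call held with each library left out. Alternatives were DESeq2 1.42.0, RLE or upper-quartile factors, no filter, a mean of at least 1 CPM, a threshold of 0.01, a fit of the compared groups alone, thinning to 11785740 counts and leaving out each library. On simulated data for KO no-Cys against Het no-Cys (14503 genes), 170 of 200 changed genes were recovered, 73% of the 2-fold and 97% of the 4-fold changes, with 11 false calls. Figures used Python and matplotlib.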

Additional observations from a re-analysis of the deposited data

Results flagged for a closer look

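Of 24 gene and group combinations with 4 livers, 2 had a liver far from the other 3, where chance alone gives about 1 in 20. In KO no-Trp livers with BSO, G6pc was at 169 CPM in av10 and between 55.3 and 65.4 CPM in the others. In Het no-Cys livers, Fbp1 was at 1533 CPM in av04 and between 1304 and 1335 CPM in the others. The genotype difference of Pck2 on the no-Cys diet exceeded that on the no-Trp diet by 3.29 on the log2 scale (SE 0.517, adjusted p = 0.0018, interaction term in edgeR), and was the only one of the 8 interaction terms that passed. The causes were not tested.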

How the results depend on the processing

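The calls on Pck2 kept their side of the threshold and their direction under every alternative run, and so did that of Ldha for KO no-Cys against Het no-Cys livers. With DESeq2, 1 of the 8 genes passed for KO no-Trp against Het no-Trp (Ldha; 4.92% of all genes), 2 for KO no-Trp with BSO against KO no-Cys (6.44%) and 1 for Het no-Cys against Het control (4.68%). With no filter, 3 passed for KO no-Cys against Het no-Cys (11.1% of all genes), 2 for KO no-Cys against KO no-Trp (5.25%), 1 for KO no-Trp with against without BSO (1.05%), 3 for KO no-Trp with BSO against KO no-Cys (2.12%), 2 for Het no-Cys against Het control (1.77%) and 1 for Het no-Trp against Het control (0.259%). The calls this added were G6pc in 4 comparisons, Ppargc1a in 2 and Pklr in 2. Fitting only the groups compared gave 2 for KO no-Trp with BSO against KO no-Cys (4.11%), and an adjusted p under 0.01 gave 0 for Het no-Cys against Het no-Trp (2.23%). Leaving out each liver in turn gave 0 to 1 for Het no-Cys against Het no-Trp (4.05 to 9.01% of all genes). For KO no-Trp with against without BSO it gave 0 to 1 (0.245 to 1.16%), and for KO no-Cys against Het no-Cys 2 to 3 (18.1 to 23.7%). For KO no-Cys against KO no-Trp it gave 1 to 2 (4.65 to 12.6%). For KO no-Trp with BSO against KO no-Cys it also gave 1 to 2 (0.352 to 6.97%). The causes were not tested. Of the log2 differences that did not pass, 23 changed sign when single livers were left out. For KO no-Cys against Het no-Cys, Fbp1 ranged from -0.11 to 0.032. For Het no-Cys against Het no-Trp, G6pc ranged from -0.41 to 0.32. For Het no-Cys against Het control, Ldha ranged from -0.084 to 0.21. For the interaction, Fbp1 ranged from -0.13 to 0.019, Pcx from -0.33 to 0.19, Ppargc1a from -0.16 to 0.76 and Ldha from -0.093 to 0.16. For KO no-Cys against KO no-Trp, Pck1 ranged from -0.051 to 0.085 and Pcx from -0.22 to 0.30. For KO no-Trp with BSO against KO no-Cys, Pck1 ranged from -0.0605 to 0.066. For KO no-Trp with against without BSO, Pck1 ranged from -0.051 to 0.073, Pck2 from -0.52 to 0.011, Pcx from -0.44 to 0.0801, Ppargc1a from -0.54 to 0.38 and Pklr from -0.39 to 0.035. For KO no-Trp against Het no-Trp, Pck1 ranged from -0.14 to 0.12, Pck2 from -0.39 to 0.14, G6pc from -0.65 to 0.36, Fbp1 from -0.055 to 0.097, Pcx from -0.025 to 0.49, Ppargc1a from -0.28 to 0.65 and Pklr from -0.093 to 0.44. For Het no-Trp against Het control, Pklr ranged from -0.39 to 0.25. Without leaving out livers, the sign turned at values near 0: Pck1 for KO no-Trp against Het no-Trp (-0.0098 with upper-quartile factors, -0.003 with a mean of at least 1 CPM), Pcx for KO no-Cys against KO no-Trp (-0.0062 with upper-quartile factors, -0.0068 with no filter, -0.0015 with only those groups) and the interaction of Ldha (-0.0011 with upper-quartile factors, -4e-04 with a mean of at least 1 CPM). No paired analysis was possible because the columns of the table carry no replicate number. Thinning every library to the shallowest changed no call of the 8 genes. Groups of 2 to 4 livers set the precision, and the lowest count behind a value was 59, for Pck2.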

Other observations

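For each of the 8 genes, the genes whose log2 CPM correlated best with it were looked up among 12582 genes with a mean of at least 1 CPM, over the 20 livers. The livers fall into 6 groups, and differences within and between groups both enter these correlations, which are given as a description. For Pck2 these genes were Derl1 (r = 0.95), which encodes a component of endoplasmic-reticulum-associated degradation, Vmn2r3 (0.93) and Serbp1 (0.92). For G6pc they were Slc25a25 (0.91), a mitochondrial ATP-Mg carrier, Acsl1 (0.89), an acyl-CoA synthetase, and Zpr1 (0.88). Pck1 had weaker ones, with Baiap2 (0.79), Capn10 (0.76) and Tat (0.76), the tyrosine aminotransferase that glucocorticoids induce. Pklr correlated with Rab21 (0.85) and Pygl (0.85), liver glycogen phosphorylase. Ldha correlated with Bcl6b (0.89), Pcx with Acad10 (0.85), Ppargc1a with Pptc7 (0.83) and Fbp1 with Pde7b (0.77). Among pairs of the 8 genes the highest was G6pc with Ldha (0.71), and Pck1 with Pck2 gave -0.13.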
